A study of Mus musculus with 27 samples.

Results

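The genes described here are the ribosome biogenesis factors of the mouse kidney whose symbols begin with Utp, Nop, Rrp or Nol followed by a digit, or are Polr1a to Polr1f. Of the 19392 genes listed, 42 had such a symbol, and all 42 were above 0 FPKM (fragments per kilobase of gene length, scaled by the total of each library) in at least 3 kidneys, the minimum set for a gene to be included. Nol4 stood at that limit, at 0.02 FPKM in exactly 3 kidneys and listed at 0 in the others, and the other members were above 0 in all 27 kidneys. The kidneys came from C57BL/6 mice whose left renal pedicle had been clamped for 16, 18, 20, 22, 24, 26, 28 or 30 min, with a sham group at 0 min. In the surgery described, the right kidney was removed, the mouse lay on a warm plate, and the left kidney was taken after 24 h of reperfusion. The paper lists 0 min among the ischemia times of this model and does not describe the sham surgery apart from it. The labels of that group say only sham and 24 h. There were 3 mice at each of the 9 ischemia times, and the age of the mice is not given in the sources used here. The values are from whole tissue, so fewer cells of a type and less RNA per cell cannot be told apart. The values come without read counts. Sequencing depth is therefore unknown, and error is estimated from the spread among mice of the same ischemia time, pooled over all 9 times.

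A cell builds its ribosomes mainly in the nucleolus. RNA polymerase I (Pol I) copies the ribosomal genes into one long precursor RNA, and small nucleolar ribonucleoproteins (snoRNPs) modify that RNA while proteins of the U3 snoRNP (Utp), packed with many partners into the small-subunit processome, fold and cut it. Other nucleolar proteins (Nop, Nol) and rRNA processing proteins (Rrp) then shape the precursors of the large and small subunits until they leave the nucleus. The pathway is known to be costly for the cell and to follow growth signals, with the transcription factor MYC among its known activators.

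Levels of other genes set the frame for these results. The summed FPKM of the kidney epithelium markers (Lrp2, Slc34a1, Slc5a2, Slc12a1, Umod, Slc12a3, Aqp2 and Nphs1) was 4310.84 to 4834.44 at 0 min, and none of the 8 was at 0 in all kidneys, so the tissue carried the markers of its label. A few libraries stood apart from the others of their group. In the library of 16 min replicate 3 the summed tubular injury markers (Havcr1, Lcn2, Krt20 and Vcam1) were 70.23 FPKM, against 727.97 and 1018.69 in the other 16 min kidneys. In sham replicate 3 they were 89.94 FPKM, against 16.29 and 15.62 in the other sham kidneys. Without sham replicate 3, 30 members rose at 28 min and 29 at 30 min, and 3 did after 16 min of ischemia. In that of 30 min replicate 3 the summed epithelium markers were 3359.93 FPKM, against 1375.11 and 1305.74 in the other 30 min kidneys. The same kidney had the highest summed tubular injury markers of all 27 kidneys (4910.33 FPKM, against 2507.48 and 3326.82 in the other 30 min kidneys) and the highest summed markers of fibroblasts and mural cells (262.92 FPKM, against 121.5 and 78.64). It was also the lowest of the 3 at 30 min for 38 of the 42 ribosome biogenesis factors. The share of all genes lowest in this kidney was not counted, so that number only describes the members.

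The ribosome biogenesis factors moved together at the longest ischemia times. At 28 min, 30 of the 42 rose against 0 min and none fell (adjusted p under 0.05 in limma), where 24.5% of all 18188 genes tested were called higher and 23.6% lower. At 30 min, 29 rose and 1 fell (Utp20), where 26.9% of all genes were called higher and 25.4% lower. The median log2 fold change of the 42 genes was 0.46 at 28 min and 0.41 at 30 min, and that of all genes tested was 0.00 at both times. From 16 to 26 min the counts of members that rose were much lower, and closer to the share of all genes. They were 7 after 16 min (16.7% of members, against 9.43% of all genes), 7 after 18 min (16.7% against 12.6%) and 4 after 20 min (9.52% against 10.7%). Later they were 11 after 22 min (26.2% against 13.4%), 9 after 24 min (21.4% against 13.6%) and 13 after 26 min (31% against 14.9%). The share of members was thus below that of all genes at 20 min and above it at the other times. One member fell in this range, Utp15 at 24 min, where 14.8% of all genes were called lower. At the other times of this range 9.61% (16 min), 15.2% (18 min), 12.1% (20 min), 15.4% (22 min) and 15.2% (26 min) of all genes were called lower, and no member. The medians of the members lay between 0.08 and 0.16 from 16 to 26 min, and those of all genes between -0.01 and 0.00. All of these comparisons share the 3 sham kidneys.

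**Figure D1:**
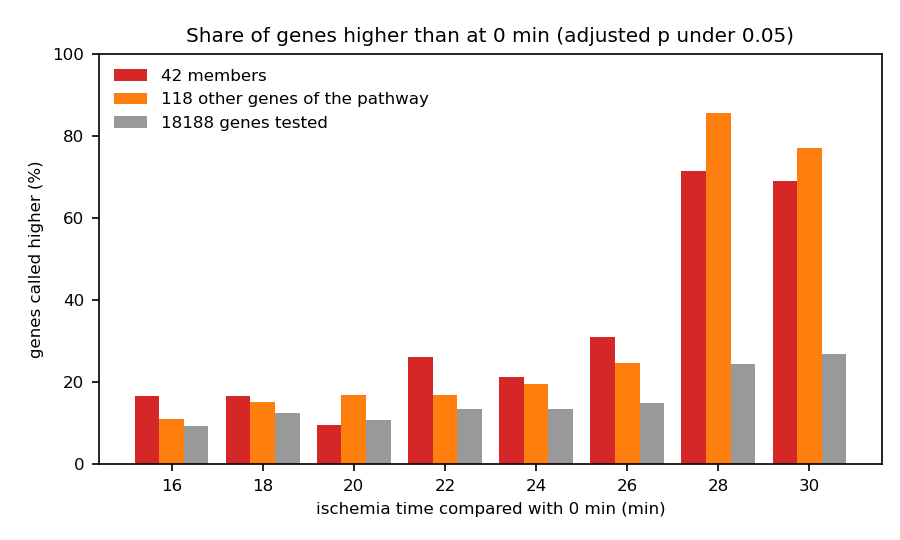
Percentage of genes called higher than at 0 min (y axis, limma adjusted p under 0.05) at each ischemia time (x axis, min), for the 42 ribosome biogenesis factors, 118 other genes of the pathway and all 18188 genes tested. The share of the 42 factors is 31% at 26 min and 71.4% at 28 min, while the share of all genes is 14.9% and 24.5%.

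The counts at the shorter times changed when single kidneys were left out. Leaving out each kidney in turn moved the count at 16 min to between 1 and 11, with 11 reached without the library of 16 min replicate 3. Without 1 of the sham kidneys it was 2 or 3, and without 16 min replicate 1 or 2 it was 3 or 1. The count ranged from 0 to 6 for 18 min, from 4 to 10 for 22 min and from 6 to 11 for 26 min. The number of all genes called higher at 16 min went from 1715 to between 818 and 2474, with 2474 also reached without 16 min replicate 3. At 26 min it went from 2702 to between 2084 and 2380. Each such fit has 1 kidney fewer, and the part of this in the changes was not tested. None of the 7 members that rose at 16 min, none of the 7 at 18 min and 1 of the 4 at 20 min (Nol10) kept the call through every such fit. At 26 min 6 of the 13 did: Rrp12, Rrp1, Nol6, Rrp9, Nop58 and Nol7. At 28 min all 30 members kept it, and at 30 min 27 of 29 did, all but Polr1e and Nol7. Without 30 min replicate 3 the count at 30 min was again 29.

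Grouped by time, 3 members, Nop58, Nol6 and Rrp9, were called higher at all 8 ischemia times. In all, 16 members were called higher at 1 or more times from 16 to 26 min, and 15 of these were called higher at 28 and 30 min as well. The exception was Nol3. Another 13 members were called higher at 28 and 30 min and at no shorter time, and 12 of these 13 also rose between 26 and 28 min. This group held the 5 Pol I subunits, with Nop10, Nop16, Nop9, Rrp8, Utp14a, Utp15, Utp18 and Utp3. Nop53 was called at 30 min alone, and Nol11 and Nol9 at 28 min alone. The other 10 members were called higher at no time: Nol4, Nol4l, Nol8, Rrp36, Utp11, Utp14b, Utp20, Utp23, Utp25 and Utp6. At single times 9.43% to 14.9% of all genes were called higher from 16 to 26 min, and 24.5% and 26.9% at 28 and 30 min. The share of all genes in each of these time groups was not counted, so the groups only describe the members.

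**Figure D2:**
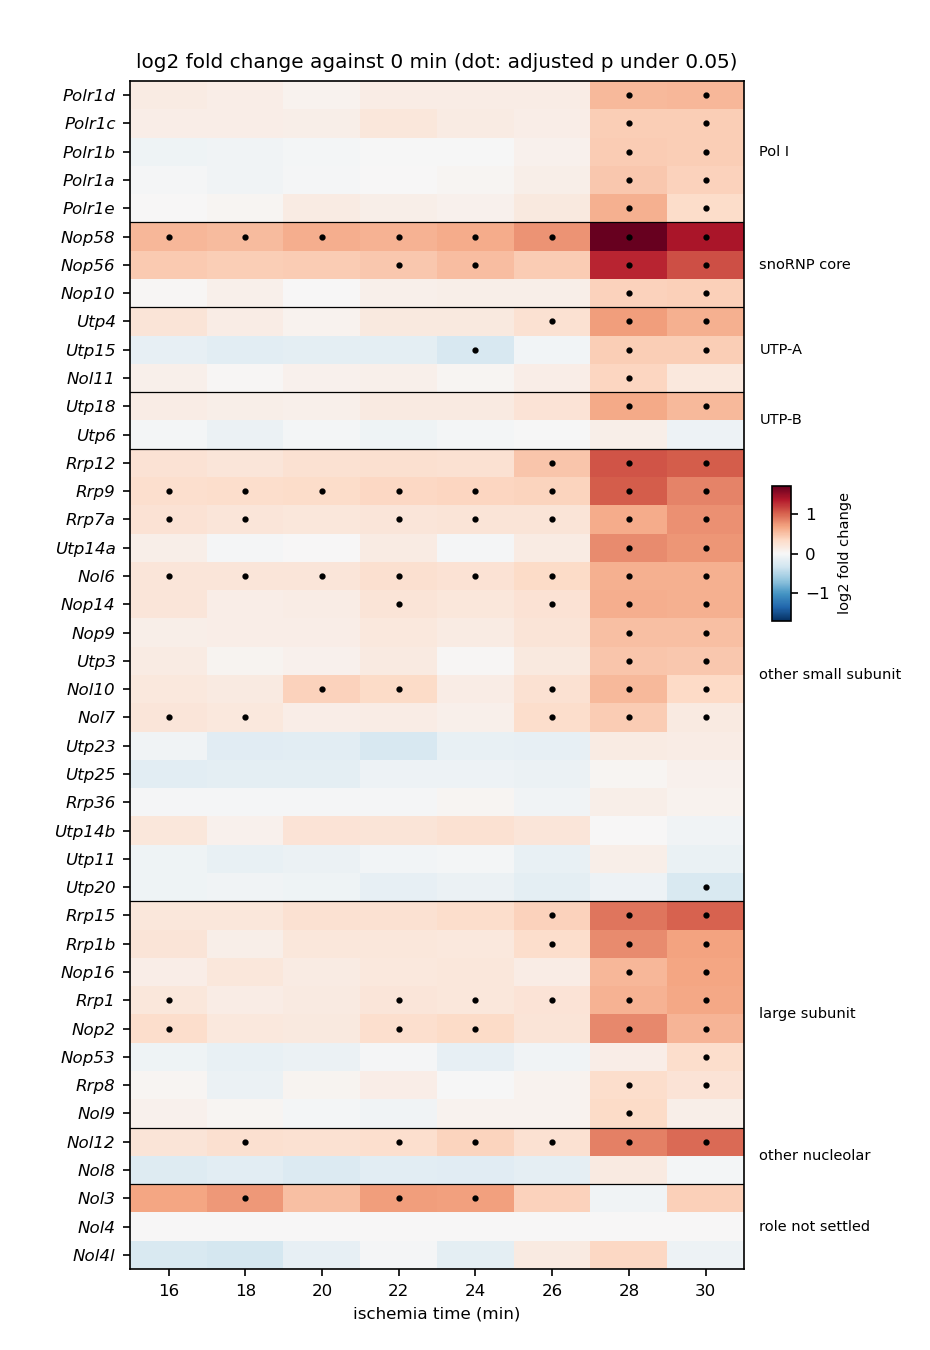
log2 fold change against 0 min (colour) of the 42 ribosome biogenesis factors (rows, grouped by role) at the 8 ischemia times (columns, min), with a dot where the adjusted p was under 0.05. Dots fill the 28 and 30 min columns of most rows, and the darkest cell is Nop58 at 28 min (1.69).

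The interval from 26 to 28 min was tested directly. It is one of the intervals the study singled out from its clustering of expression in these same kidneys, so its choice was not independent of the values. Between these times 28 of the 42 members rose and none fell, where 10.8% of all genes were called higher and 8.52% lower. At an unadjusted p under 0.05, 35 members were higher and 0 lower. The share of all genes at this unadjusted threshold was not counted, so these numbers only describe the members. The median log2 fold change of the members was 0.30, against 0.00 for all genes, and the values ran from -0.44 for Nol3 to 0.93 for Nop58. No member passed an absolute log2 fold change of 1 in this interval, which 0.44% of all genes passed upward. The 3 kidneys at 28 min lay above all 21 kidneys of 0 to 26 min for 30 of the 42 members, where 12.4% of all genes did so. All 6 kidneys of 28 and 30 min lay above these 21 kidneys for 17 members, where 7.32% of all genes did so. With each kidney of 26 and 28 min left out in turn the count of members that rose ranged from 20 to 28, and 19 of the 28 kept the call every time. The 9 that did not were Rrp8, Polr1b, Nol10, Polr1e, Utp3, Nop10, Utp11, Rrp15 and Nop9.

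**Figure D3:**
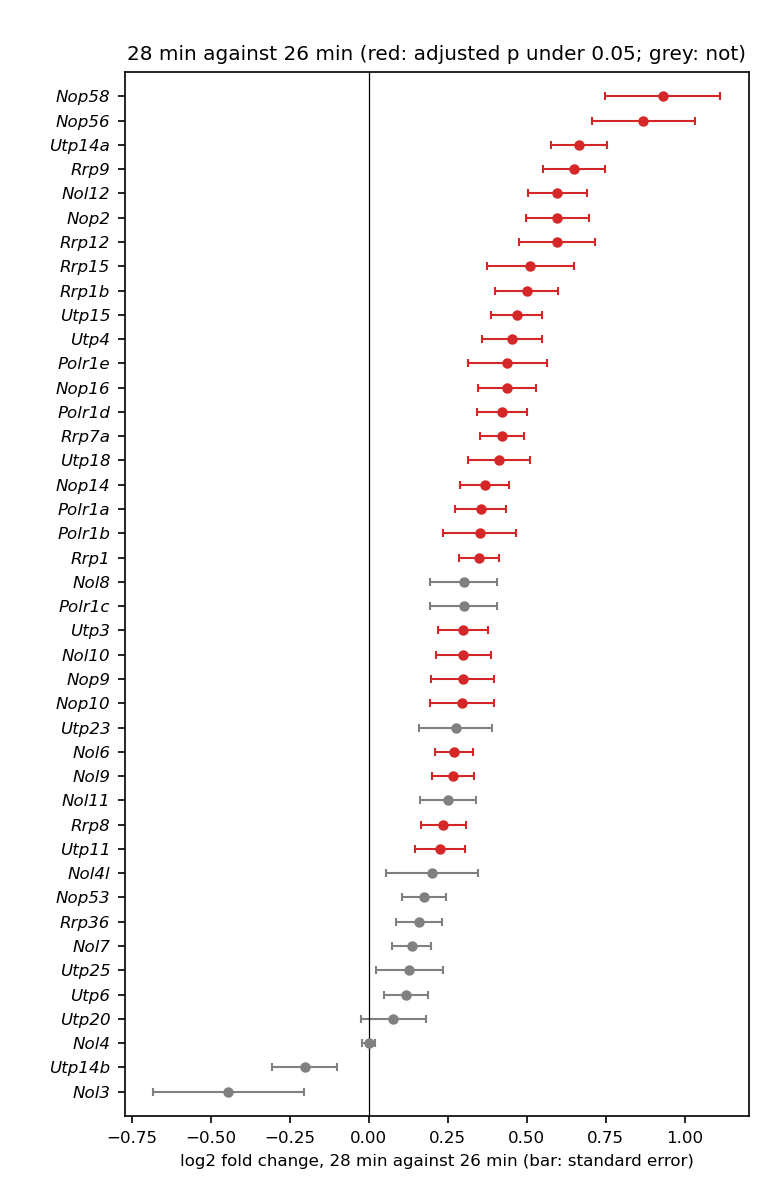
log2 fold change at 28 min against 26 min (x axis) of the 42 ribosome biogenesis factors (y axis, in order), with bars for the standard error and red for an adjusted p under 0.05. The 28 red genes all lie above 0, from 0.23 for Utp11 to 0.93 for Nop58.

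Levels of some cell type markers moved in the same interval. The summed kidney epithelium markers were 2963.32 to 4130.04 FPKM at 26 min, against 1667.43 to 2039.79 at 28 min, with 3 of the 8 called lower. The summed tubular injury markers lay between 609.86 and 1215.45 at 26 min and between 2140.04 and 2259.17 at 28 min, with 1 of 4 called higher. Of the neutrophil markers, 3 of 4 rose (S100a8, S100a9 and Cxcr2), and their sum was 5.34 to 8.99 FPKM at 26 min and 14.48 to 17.8 at 28 min. None of the 6 leukocyte markers was called, and their sums overlapped (18.87 to 30.21 and 26.07 to 30.49 FPKM). None of the 5 markers of cycling cells (Mki67, Top2a, Pcna, Ccnb1 and Mcm2) was called either. Their sum was 122.88 to 158.85 FPKM at 26 min, 149.8 to 173.73 at 28 min and 69.4 to 110.27 at 30 min. Of the 4 markers of fibroblasts and mural cells (Pdgfrb, Col1a1, Col3a1 and Acta2) 1 was called lower in this step (Col3a1), and none of the 4 endothelial (Pecam1, Kdr, Emcn and Cdh5) or 3 erythroid markers (Hba-a1, Hbb-bs and Hbb-bt) was called.

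More of these lists moved against 0 min. At 28 min all 5 markers of cycling cells, all 4 of fibroblasts and mural cells and all 4 of tubular injury were called higher, with median log2 fold changes of 1.69, 2.04 and 5.40. Of the epithelium markers 5 of 8 were called lower, and 2 of 4 neutrophil, 2 of 6 leukocyte, 1 of 3 erythroid and 0 of 4 endothelial markers were called higher. The cycling markers summed to 37.21 to 50.99 FPKM at 0 min. The fibroblast and mural markers summed to 20.65 to 27.32 FPKM in the sham group, 123.28 to 174.75 after 26 min and 93.9 to 136.6 after 28 min. At 30 min 2 of the 5 cycling, all 4 fibroblast and mural, 3 of 4 tubular injury, 3 of 4 neutrophil, 2 of 6 leukocyte, 3 of 4 endothelial and all 3 erythroid markers were called higher, and 5 of 8 epithelium and 1 of 6 leukocyte markers lower. From 28 to 30 min 3 of the 5 cycling markers were called lower and 3 of the 4 endothelial markers higher. No marker in these lists was at 0 in every kidney. The part of the cell makeup in the change of the ribosome biogenesis factors was not tested.

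The Pol I subunits make up the enzyme that starts the pathway. All 5 rose at 28 and at 30 min against 0 min, and 4 of 5 rose from 26 to 28 min. The calls at 28 against 0 min were kept under every alternative run, but those of Polr1b, Polr1c and Polr1e at 30 min were not called in a fit of only the 0 and 30 min kidneys. Polr1a is the largest subunit and holds the catalytic site with Polr1b. Polr1a was at 5.13, 5.31 and 6.28 FPKM in the sham kidneys, 6.43, 6.69 and 7.02 at 26 min, 8.94, 8.97 and 8.82 at 28 min and 9.5, 8.31 and 7.27 at 30 min. Every kidney of 28 and 30 min was thus above every sham kidney and every 26 min kidney. Its log2 fold change was 0.46 (SE 0.08, adjusted p = 8.57e-05) at 28 min against 0 min and 0.35 (SE 0.08, adjusted p = 0.00411) against 26 min. At 30 min it was 0.39 (SE 0.08, adjusted p = 0.000369), and at 16 min it was -0.01 (SE 0.08, adjusted p = 0.944).

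Polr1b was at 5.84, 5.98 and 6.18 FPKM at 0 min, 6.61, 7.03 and 7.63 at 26 min and 9.24, 9.62 and 9.23 at 28 min. The 3 groups did not overlap in these values, and the step from 26 to 28 min had a log2 fold change of 0.35 (SE 0.12, adjusted p = 0.0402). That call was lost when any single kidney of 26 or 28 min but 26 min replicate 3 was left out, and with a pseudocount of 0.1 FPKM. At 30 min the kidneys were at 10.36, 10.38 and 6.99 FPKM, with replicate 3 near the level of 26 min, and the log2 fold change against 0 min was 0.41 (SE 0.12, adjusted p = 0.00531). Polr1e, a subunit particular to Pol I, was at 3.3, 3.74 and 3.93 FPKM at 0 min, 4.54, 4.98 and 4.72 at 26 min and 6.76, 7.1 and 6.29 at 28 min. It rose by 0.44 (SE 0.12, adjusted p = 0.0181) from 26 to 28 min, a call lost without 26 min replicate 1, 28 min replicate 1 or 28 min replicate 2. At 30 min it stood at 6.44, 5.6 and 4.21 FPKM, a log2 fold change of 0.31 (SE 0.12, adjusted p = 0.0406) against 0 min, and this call was lost without any 1 of the sham kidneys and without 30 min replicate 1 or 2.

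Polr1c and Polr1d are shared with RNA polymerase III and were the most abundant of the subunits. Polr1d was at 96.6 ± 4.51 FPKM (SD, n = 3) in sham kidneys, 106 ± 2.91 after 26 min and 140.5 ± 7.36 after 28 min, and it rose by 0.42 (SE 0.08, adjusted p = 0.00112) in the last step. Its 28 min kidneys (139.05, 133.93 and 148.45 FPKM) were all above its 26 min kidneys (106.01, 103.48 and 109.29). Polr1c was at 21.9 ± 1.89 FPKM in sham kidneys, 25.4 ± 1.55 after 26 min and 32.2 ± 3.43 after 28 min. Its 28 min kidneys also lay above its 26 min kidneys, but the log2 fold change of 0.30 (SE 0.11, adjusted p = 0.0549) did not pass the threshold. Against 0 min Polr1c rose at 28 min (0.41 (SE 0.11, adjusted p = 0.00312)), and at 30 min the log2 fold changes were 0.42 for Polr1c and 0.56 for Polr1d. Twistnb, an older symbol of Polr1f that the choice by name left out, was looked up after its values were seen. It was at 4.72, 6.71 and 6.42 FPKM at 26 min and 8.51, 7.73 and 8.63 at 28 min, a log2 fold change of 0.43 (SE 0.14, adjusted p = 0.0439).

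The snoRNP core held the members with the largest changes. Nop58 and Nop56 form, with the methyltransferase fibrillarin, the core of the box C/D snoRNPs that methylate rRNA. Nop58 (chromosome 1, 59684961 to 59711510, GRCm38) was at 10.64, 10.79 and 13.74 FPKM at 0 min, 16.99, 24.88 and 16.45 at 16 min, 19.45, 20.23 and 27.66 at 26 min, 37.82, 45.16 and 47.27 at 28 min and 41.1, 34.77 and 27.95 at 30 min. Its sham kidneys lay below every other kidney, and its 28 and 30 min kidneys above every kidney of the shorter times. Nop58 rose at 16 min (0.57 (SE 0.18, adjusted p = 0.035)), but that call was lost when single kidneys were left out. At 26 min the log2 fold change against 0 min was 0.76 (SE 0.18, adjusted p = 0.0037), at 28 min 1.69 (SE 0.18, adjusted p = 3.48e-07) and at 30 min 1.39 (SE 0.18, adjusted p = 2.28e-06). From 26 to 28 min it rose by 0.93 (SE 0.18, adjusted p = 0.00149).

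Nop56 (chromosome 2, 130274367 to 130279313, GRCm38) was at 17.54, 14.51 and 18.57 FPKM at 0 min, 25.66, 33.58 and 17.88 at 16 min, 23.84, 23.32 and 27.49 at 26 min, 42.85, 49.6 and 46.72 at 28 min and 44.28, 40.44 and 32.46 at 30 min. Its 28 min kidneys lay above all kidneys of the shorter times, and at 30 min replicate 3 was below the highest 16 min kidney. Nop56 had a log2 fold change of 0.45 (SE 0.16, adjusted p = 0.0613) at 16 min, which did not pass the threshold, and was called higher at 22, 24, 28 and 30 min. At 28 min it was 1.30 (SE 0.16, adjusted p = 2.14e-06) against 0 min and 0.87 (SE 0.16, adjusted p = 0.00107) against 26 min, and at 30 min 1.09 (SE 0.16, adjusted p = 1.16e-05) against 0 min. Nop10, a small protein of the box H/ACA snoRNPs that pseudouridylate rRNA, was the most abundant of the 42 genes, at 126 ± 1.71 FPKM (SD, n = 3) in sham kidneys and 158 ± 8.49 after 28 min. Its log2 fold change from 26 to 28 min was 0.29 (SE 0.10, adjusted p = 0.0477), a call lost when any 1 of the 6 kidneys was left out, under both other scalings, with a pseudocount of 0.1 FPKM, without a filter and with the replicate block. Its 30 min kidneys were at 156.62, 185.75 and 126.71 FPKM, and replicate 3 lay between the sham kidneys, with a log2 fold change of 0.41 (SE 0.10, adjusted p = 0.00203) against 0 min. In a fit of only the 0 and 30 min kidneys it was not called.

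**Figure D4:**
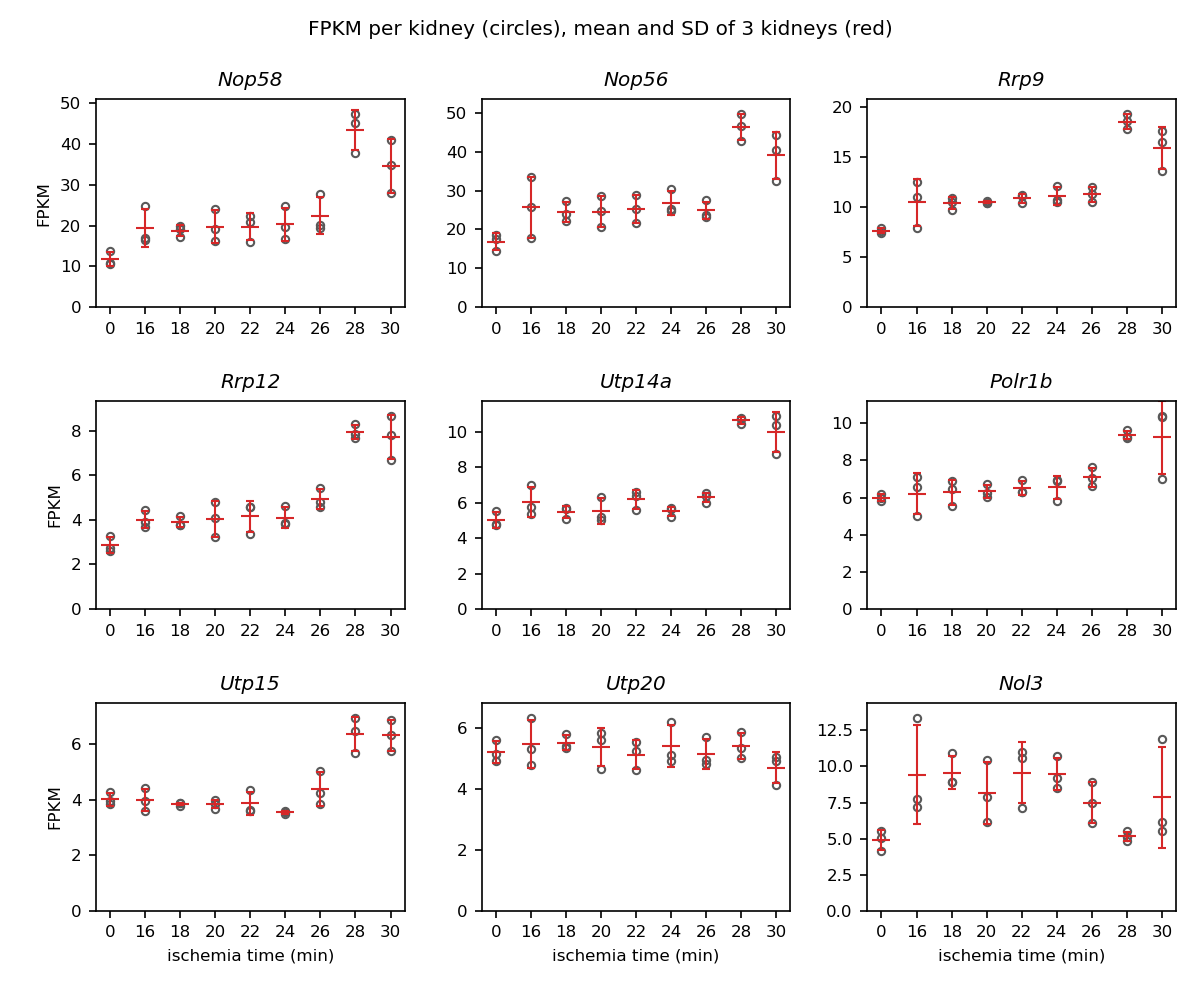
FPKM (y axis, from 0) of 9 ribosome biogenesis factors at the 9 ischemia times (x axis, min), with 1 circle per kidney and the mean and SD of 3 kidneys in red. Nop58, Nop56, Rrp9, Rrp12, Utp14a, Polr1b and Utp15 are highest at 28 and 30 min, Utp20 stays between 4.14 and 6.34 FPKM, and Nol3 at 28 min is near its sham level.

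The t-UTP or UTP-A complex binds the nascent precursor first, and 3 of its subunits were among the members. Utp4, Utp15 and Nol11 all rose at 28 min against 0 min, and Utp4 and Utp15 rose from 26 to 28 min. Utp4 was at 12.2 ± 1.19 FPKM (SD, n = 3) in sham kidneys, 16.3 ± 1.96 after 26 min and 23 ± 0.658 after 28 min, and it rose by 0.45 ± 0.09 (log2 fold change ± SE) in the last step. Utp15 was at 3.94, 4.28 and 3.83 FPKM at 0 min, 3.6, 4.41 and 3.94 at 16 min, 3.61, 3.55 and 3.49 at 24 min, 3.84, 4.23 and 5.05 at 26 min and 5.7, 6.94 and 6.47 at 28 min. It was the 1 member called in both directions against 0 min. At 16 min its log2 fold change against 0 min was -0.13 (SE 0.08, adjusted p = 0.282), at 24 min it fell (-0.28 (SE 0.08, adjusted p = 0.0152)), and at 28 min it rose (0.42 (SE 0.08, adjusted p = 0.00024)). The fall at 24 min was not called without sham replicate 2, nor without quantile normalization. From 26 to 28 min Utp15 rose by 0.47 (SE 0.08, adjusted p = 0.000589). Nol11 was at 9.49 ± 1.22 FPKM after 26 min and 11.5 ± 0.43 after 28 min, and its log2 fold change of 0.25 (SE 0.09, adjusted p = 0.054) in this step missed the threshold.

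The UTP-B complex follows UTP-A onto the precursor. Of its subunits among the members, Utp18 rose by 0.65 ± 0.10 (log2 fold change ± SE) after 28 min against 0 min and by 0.41 ± 0.10 against 26 min, from 10.6 ± 1.27 to 14.5 ± 0.678 FPKM. Utp6 did not pass the test at any time. It was at 14.47, 13.22 and 14.54 FPKM at 0 min, 17.03, 17.55 and 16.45 at 28 min and 16.6, 14.13 and 12.54 at 30 min, with log2 fold changes of 0.11 (SE 0.07, adjusted p = 0.238) at 28 min and -0.09 (SE 0.07, adjusted p = 0.308) at 30 min.

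The other small-subunit factors numbered 16, of which 10 rose at 28 min and at 30 min against 0 min and 10 rose from 26 to 28 min. Rrp9 is the protein particular to the U3 snoRNP, which base pairs with the precursor. It was at 7.6, 7.41 and 7.95 FPKM at 0 min, 11.04, 12.51 and 7.94 at 16 min, 11.34, 10.53 and 12.06 at 26 min, 17.81, 18.62 and 19.29 at 28 min and 16.56, 17.68 and 13.61 at 30 min. The 28 and 30 min kidneys lay above all others, and 16 min replicate 3 lay within the sham range. Rrp9 had a log2 fold change of 1.03 (SE 0.10, adjusted p = 8.38e-08) at 28 min and 0.85 (SE 0.10, adjusted p = 4.78e-07) at 30 min against 0 min, and of 0.65 (SE 0.10, adjusted p = 0.000181) at 28 against 26 min. Rrp12, a large repeat protein that travels with the maturing subunits, was at 2.74, 2.59 and 3.29 FPKM at 0 min, 4.81, 4.57 and 5.41 at 26 min, 7.85, 8.28 and 7.67 at 28 min and 8.64, 7.82 and 6.69 at 30 min. It rose by 1.07 (SE 0.12, adjusted p = 5.16e-07) at 28 min and 1.04 (SE 0.12, adjusted p = 4.46e-07) at 30 min against 0 min, and by 0.60 (SE 0.12, adjusted p = 0.00173) from 26 to 28 min. With Nop56 and Nop58, Rrp9 and Rrp12 were the 4 members past an absolute log2 fold change of 1 at 28 min, where 4.27% of all genes passed it upward. At 30 min these were 3 (Rrp12, Nop56 and Nop58), where 5.14% of all genes did so, and without 30 min replicate 1 there was 1.

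Utp14a and Utp14b are a pair of paralogs, with Utp14b known as a retrocopy of the X-linked Utp14a. The processing notes do not say how reads that fit both genes were shared between them, so their values are uncertain. Utp14a was at 4.75, 4.8 and 5.55 FPKM at 0 min, 6.54, 6 and 6.37 at 26 min, 10.45, 10.79 and 10.75 at 28 min and 10.89, 10.41 and 8.73 at 30 min, and the 28 and 30 min kidneys lay above all others. It rose by 0.67 (SE 0.09, adjusted p = 6.6e-05) from 26 to 28 min, and against 0 min the log2 fold change was 0.81 (SE 0.09, adjusted p = 4.27e-07) at 28 min, 0.75 (SE 0.09, adjusted p = 6.17e-07) at 30 min and 0.10 (SE 0.09, adjusted p = 0.503) at 16 min. Utp14b was at 0.45, 0.42 and 0.43 FPKM at 0 min, 0.69, 0.92 and 0.68 at 26 min, 0.53, 0.67 and 0.33 at 28 min and 0.49, 0.47 and 0.41 at 30 min. Its kidneys from 16 to 26 min lay above the sham kidneys and its 28 min kidneys lay below those of 26 min. None of its changes passed the test, with log2 fold changes of 0.21 (SE 0.10, adjusted p = 0.142) at 26 against 0 min and -0.20 (SE 0.10, adjusted p = 0.192) at 28 against 26 min.

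Nol6 and Rrp7a, partners in one module of the processome, were called higher at 8 and 7 of the 8 times. Nol6 was at 10.5 ± 1.06 FPKM (SD, n = 3) in sham kidneys, 13.2 ± 1.32 after 16 min, 14.7 ± 0.309 after 26 min and 18.2 ± 0.287 after 28 min. Its log2 fold changes against 0 min lay between 0.20 at 16 min and 0.60 at 28 min, with a standard error of 0.06. Rrp7a was at 32.8 ± 1.02 FPKM in sham kidneys, 41.5 ± 5.78 after 16 min, 54.6 ± 3.14 after 28 min and 59.2 ± 4.29 after 30 min, and its log2 fold change was 0.78 ± 0.07 (± SE) after 30 min. The other members of the group that rose at 28 and 30 min were Nop14, Nop9, Utp3, Nol10 and Nol7, by 0.43 to 0.62 at 28 min and by 0.15 to 0.60 at 30 min. Nol7 fell from 28 to 30 min (-0.28 (SE 0.06, adjusted p = 0.00586)), from 43.7 ± 1.99 to 34.8 ± 2.52 FPKM. Nol10 had risen by 0.39 ± 0.09 at 20 min, a call kept with each kidney left out.

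Utp20, Utp11, Utp23, Utp25 and Rrp36 did not rise against 0 min at any time. Utp20, a very large scaffold protein of the processome, was at 5.16, 4.92 and 5.63 FPKM at 0 min, 4.96, 5.73 and 4.82 at 26 min, 5.02, 5.37 and 5.88 at 28 min and 5.07, 4.93 and 4.14 at 30 min. The groups overlapped, and the fall at 30 min (-0.26 (SE 0.10, adjusted p = 0.0387)) was not called without any 1 of the sham kidneys, without 30 min replicate 3 or without quantile normalization. From 26 to 28 min its log2 fold change was 0.08 (SE 0.10, adjusted p = 0.688). Utp11 was at 25.06, 23.03 and 25.12 FPKM at 0 min, 24.13, 22 and 25.84 at 26 min, 26.26, 28.89 and 31.72 at 28 min and 25.87, 26.07 and 20.59 at 30 min. Its log2 fold change against 0 min was -0.11 (SE 0.08, adjusted p = 0.273) at 30 min, though it rose by 0.23 (SE 0.08, adjusted p = 0.048) from 26 to 28 min. Utp25, a helicase-like protein, was at 3.21, 3.98 and 3.02 FPKM at 0 min and 3.56, 2.88 and 3.32 at 16 min, with a log2 fold change of -0.18 (SE 0.11, adjusted p = 0.261). Utp23 was at 4.06 ± 0.211 FPKM (SD, n = 3) in sham kidneys and 5.09 ± 0.614 after 28 min, and Rrp36 was at 8.82 ± 0.589 and 10.6 ± 0.606.

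Of the 8 large-subunit factors, 7 rose at 28 min, 7 at 30 min and 7 from 26 to 28 min. Rrp15, which acts in the early large-subunit precursor, was at 4.91, 5.39 and 6.43 FPKM at 0 min, 7.96, 8.04 and 9.36 at 26 min, 13.04, 14.39 and 10.67 at 28 min and 15.1, 15.11 and 10.19 at 30 min. The 6 kidneys of 28 and 30 min lay above all others, and the log2 fold change was 0.998 (SE 0.14, adjusted p = 3.94e-06) at 30 against 0 min and 0.51 (SE 0.14, adjusted p = 0.0126) at 28 against 26 min. Nop2, an rRNA cytosine methyltransferase, was at 10.25, 9.6 and 13.02 FPKM at 0 min, 14.91, 16.22 and 12.84 at 16 min, 13.71, 13.11 and 15.6 at 26 min, 20.59, 23.03 and 23.18 at 28 min and 20.9, 18.38 and 15.44 at 30 min. It rose at 16 min by 0.30 (SE 0.10, adjusted p = 0.0411), where one 16 min kidney lay within the sham range, and from 26 to 28 min by 0.60 (SE 0.10, adjusted p = 0.000421). Its kidney of 30 min replicate 3 lay within the range of the times from 16 to 26 min.

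Rrp1b and Rrp1, related proteins of the large-subunit precursor, differed in level. Rrp1 was at 60.9 ± 2.98 FPKM (SD, n = 3) in sham kidneys and 96 ± 3.24 after 28 min, and Rrp1b at 2.65 ± 0.193 and 6.02 ± 0.337. Both rose from 26 to 28 min, by 0.35 ± 0.06 and 0.50 ± 0.10 (log2 fold change ± SE). Nop16 rose by 0.44 ± 0.09 and Rrp8, an rRNA adenine methyltransferase, by 0.24 ± 0.07 in the same step. Nol9, a polynucleotide kinase of the spacer between the large-subunit rRNAs, rose to 12.2 ± 0.512 FPKM after 28 min, from 9.9 ± 0.5 after 26 min, and fell to 10.1 ± 0.524 after 30 min (log2 fold change -0.22). Nop53, which brings the RNA exosome to the precursor, was the 1 large-subunit member not called at 28 min. It was at 54.3 ± 2.49 FPKM in sham kidneys, 62.1 ± 0.52 after 28 min and 68.2 ± 2.25 after 30 min, and it rose by 0.30 ± 0.07 at 30 against 0 min.

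Of the other nucleolar members, Nol12, an RNA-binding protein of rRNA processing, was at 11.23, 9.14 and 11.22 FPKM at 0 min, 14.39, 12.95 and 14.59 at 26 min, 22.87, 20.73 and 22.58 at 28 min and 23.3, 23.9 and 21.73 at 30 min. All 6 kidneys of 28 and 30 min were above all others, with a log2 fold change of 0.96 (SE 0.09, adjusted p = 4.77e-08) at 30 against 0 min and 0.60 (SE 0.09, adjusted p = 0.00024) at 28 against 26 min. Nol8 was at 3.7, 4.09 and 4.07 FPKM at 0 min, 3.07, 3.88 and 3.91 at 16 min, 3.7, 3.76 and 4.3 at 26 min and 4.57, 4.91 and 5.54 at 28 min. Its 28 min kidneys lay above all kidneys of the shorter times, but its log2 fold changes of -0.22 (SE 0.11, adjusted p = 0.153) at 16 against 0 min and 0.30 (SE 0.11, adjusted p = 0.0516) at 28 against 26 min did not pass.

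Nol3, Nol4 and Nol4l carry the name without a settled role in ribosome assembly, and none of them rose at 28 or 30 min. Nol3, known as an inhibitor of apoptosis with a caspase recruitment domain, took a course unlike that of most members, shared up to 28 min with Utp14b. It was at 5.52, 4.14 and 5.02 FPKM at 0 min, 13.35, 7.16 and 7.76 at 16 min, 8.89, 8.94 and 10.9 at 18 min, 8.94, 7.5 and 6.05 at 26 min, 4.84, 5.12 and 5.5 at 28 min and 5.52, 6.15 and 11.88 at 30 min. All its kidneys from 16 to 26 min were above the sham kidneys, and the 28 min kidneys were below those of 26 min and within the range of the sham kidneys. Nol3 rose at 18 min (0.74 (SE 0.24, adjusted p = 0.0264)), 22 min (0.71) and 24 min (0.70). At 16 min (0.67 (SE 0.24, adjusted p = 0.0564)) and at 28 against 26 min (-0.44 (SE 0.24, adjusted p = 0.218)) it did not pass, and at 30 min replicate 3 held the highest of its 3 values. Nol4l was at 4.8, 4.31 and 4.04 FPKM at 0 min, 4.12, 4.93 and 2.77 at 16 min, 6.46, 6.56 and 6.42 at 28 min and 4.84, 4.61 and 4.14 at 30 min. Its log2 fold changes were -0.26 (SE 0.15, adjusted p = 0.229) at 16 min and -0.09 (SE 0.15, adjusted p = 0.65) at 30 min against 0 min, and the 28 min kidneys, above all kidneys of the shorter times, did not pass either (0.35 (SE 0.15, adjusted p = 0.0542)). Nol4 was listed at 0 in all kidneys of 26 and 28 min.

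Between 28 and 30 min few members changed. None rose and 2 fell, Nol7 and Nol9, where 6.47% of all genes were called higher and 6.77% lower, and at an unadjusted p under 0.05 there were 2 higher and 8 lower. The median log2 fold change of the members was -0.05. Without 30 min replicate 1 the count that fell was 7, and without 28 min replicate 2, 28 min replicate 3 or 30 min replicate 3 it was 1. Between 16 and 26 min 0 members were called in limma, as were 0 of all genes, with 2 members higher and 0 lower at an unadjusted p under 0.05 and a median of 0.04. For both intervals the share of all genes at an unadjusted p under 0.05 was not counted.

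Other genes of the pathway, listed by role and not by symbol, also rose at the longest ischemia times. Of the 118 tested, 85 (72%) rose from 26 to 28 min and 0 fell, with a median log2 fold change of 0.39, where 10.8% of all genes rose. Against 0 min, 101 (85.6%, against 24.5% of all genes) rose and 2 fell at 28 min, and 91 (77.1%, against 26.9%) rose and 3 fell at 30 min. At 16 min 13 rose and 3 fell, and the 11% that rose was near the 9.43% of all genes. Of the other small-subunit factors 24 of 34 rose from 26 to 28 min, led at 30 min by Bysl, Riok3 and Tbl3, with log2 fold changes of 0.83, 0.76 and 0.73 against 0 min. Of the other large-subunit factors 34 of 42 rose in that interval. At 30 min against 0 min they were led by Eif6, whose protein keeps the ribosomal subunits apart, with a log2 fold change of 1.99. From 26 to 28 min Eif6 rose by 0.88 ± 0.21 (log2 fold change ± SE), from 106.97, 86.92 and 108.13 FPKM to 182.45, 167.85 and 181.36 FPKM. Ppan rose by 0.94 ± 0.15 and the nucleostemin gene Gnl3 by 0.90 ± 0.13 in this step.

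Of the other snoRNP proteins 9 of 12 rose from 26 to 28 min. Fbl, the fibrillarin that works with Nop56 and Nop58, went from a mean of 54.9 to one of 85.1 FPKM, a log2 fold change of 0.62 (SE 0.11, adjusted p = 0.000501). Nhp2 and Gar1, partners of Nop10, rose by 0.76 ± 0.14 and 0.73 ± 0.21 (log2 fold change ± SE) in the same step. All 6 nucleolar chaperones and helicases rose, among them Npm1, the nucleophosmin that shuttles ribosomal proteins (0.76 ± 0.15), Mybbp1a (0.76 ± 0.10) and the helicase Ddx21 (0.69 ± 0.10). Of the other Pol I machinery 5 of 11 rose, among them Nolc1 (0.62 ± 0.09), Taf1d, a part of the factor that recognises the rRNA promoter (0.64 ± 0.14), and the Pol I subunit gene Cd3eap (0.63 ± 0.17). Of the RNA exosome 7 of 13 rose, among them Mphosph6 (0.51 ± 0.12) and the nuclease Dis3 (0.45 ± 0.10), while Exosc8 was at 0.39 ± 0.14 and did not pass. The 3 genes that fell at 30 min against 0 min were Mtrex, the helicase that feeds the exosome (-0.54 ± 0.09), the very large ATPase gene Mdn1 (-0.46 ± 0.09) and Nvl (-0.19 ± 0.06), named after their values were seen.

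Myc, the gene of a known activator of the pathway, moved in the same interval as its members. It was at 5.16, 3.24 and 4.11 FPKM at 0 min, 7.35, 14.01 and 5.19 at 16 min, 6.96, 8.84 and 20.62 at 26 min, 27.58, 28.89 and 32.44 at 28 min and 32.89, 35.9 and 18.17 at 30 min. At 26 min replicate 3 was far above the other kidneys, and at 30 min replicate 3 was below it. Myc rose from 26 to 28 min (1.33 (SE 0.33, adjusted p = 0.00708)) and at 28 and 30 min against 0 min (2.42 and 2.39), and its value at 16 min (0.72 (SE 0.33, adjusted p = 0.131)) did not pass. Myc was already called higher at 26 min against 0 min, with a log2 fold change above 1. The median log2 fold change of the members at that time was 0.16. Mxd1, the gene of a protein that competes for MYC's partner MAX, fell at 28 and 30 min against 0 min (-0.44 and -0.45). Averaged over the 42 members, the normalized log2(FPKM + 1) of a kidney was 3.41 to 3.47 at 0 min, 3.46 to 3.66 from 16 to 26 min and 3.92 to 3.94 at 28 min. At 30 min it was 3.95, 3.93 and 3.71, the last in replicate 3. The kidneys that stood high or low within their group for Myc, 16 min replicate 2, 26 min replicate 3 and 30 min replicate 3, were on the same side for this mean, while among the 20 min kidneys Myc was highest in replicate 1 and the mean in replicate 2. The kidneys named for 16, 26 and 30 min were also at the end of their group, on the opposite side, for the summed epithelium markers. Their sums were 3813.52 FPKM (lowest at 16 min), 2963.32 (lowest at 26 min) and 3359.93 (highest at 30 min). At 20 min replicate 2 had the lowest sum (3550.95 FPKM). In the groups of 0, 22 and 24 min the kidney with the lowest sum also had the highest mean. These were replicates 3, 3 and 1, with sums of 4310.84, 3903.62 and 3744.14 FPKM. Among the 18, 28 and 30 min kidneys the lowest sum and the highest mean were in different replicates. This is a description of single kidneys, and a part of MYC or of the cell makeup in the change was not tested.

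**Figure D5:**
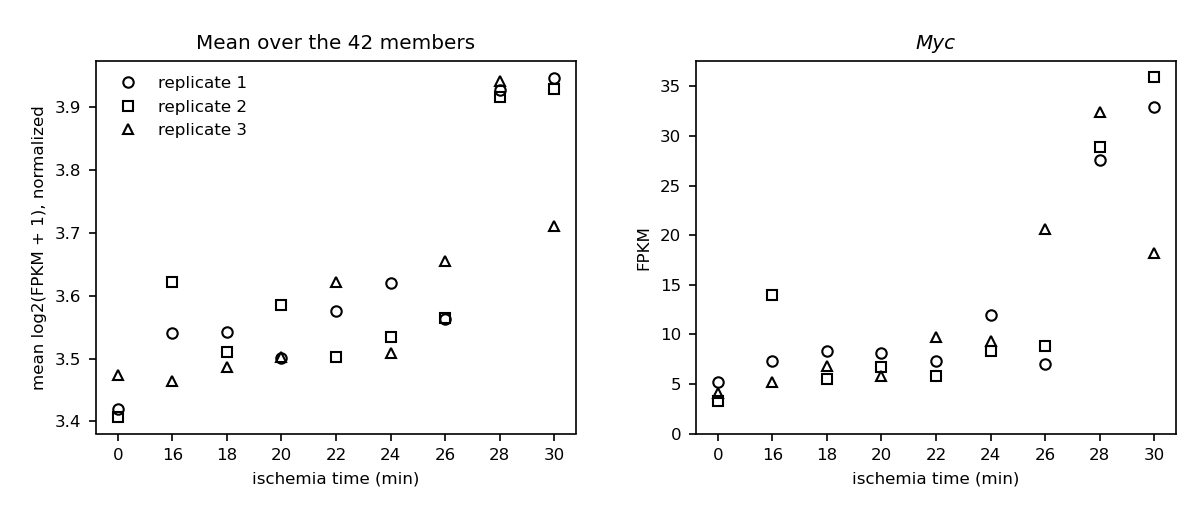
Left, the mean normalized log2(FPKM + 1) over the 42 ribosome biogenesis factors in each kidney (y axis) at the 9 ischemia times (x axis, min), and right, the FPKM of Myc in the same kidneys, with 1 symbol per replicate number. The mean lies at 3.66 or below up to 26 min and at 3.92 to 3.94 at 28 min, and 30 min replicate 3 is lowest of its group in both panels.

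Promoters were read for the letters CACGTG, the E-box that MYC with MAX is known to bind, because members of a group that moves together can be compared by their sequence. The RefSeq promoter table (GRCm38.p6) held windows of 300 bases, from 250 before to 50 after a start site, for 34 of the 42 members. The letters read the same on both strands. They stood in a window of 8 members, which is 23.5% of the 34, and of 8.91% of the 17491 protein-coding genes in the table. Median GC content was 57.5% in the members and 56.3% in the protein-coding genes, and the median number of CG pairs in a window was 20.5 and 13. The 8 members were Utp14b, Utp25, Nop2, Utp4, Utp20, Utp18, Nol11 and Rrp7a. Of the 8, 4 rose from 26 to 28 min (Nop2, Utp4, Utp18 and Rrp7a), and of the 26 members with a window and without the letters 21 did. Nop58 and Nop56, the members with the largest changes, were among those without. Upstream stretches of 3 members that rose and hold the letters, and of Nop58 and Nop56 for comparison, are given 5′ to 3′ on the strand of the gene, up to the first base of the annotated gene, with the letters CACGTG in capitals.
Nop2, chr6:125131633-125131882, plus strand: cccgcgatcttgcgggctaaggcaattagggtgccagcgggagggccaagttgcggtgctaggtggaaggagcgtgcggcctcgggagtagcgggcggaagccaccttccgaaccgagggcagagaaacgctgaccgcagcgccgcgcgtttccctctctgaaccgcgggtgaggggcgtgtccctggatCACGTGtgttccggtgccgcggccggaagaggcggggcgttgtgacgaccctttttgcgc
Rrp7a, chr15:83122802-83123051, minus strand: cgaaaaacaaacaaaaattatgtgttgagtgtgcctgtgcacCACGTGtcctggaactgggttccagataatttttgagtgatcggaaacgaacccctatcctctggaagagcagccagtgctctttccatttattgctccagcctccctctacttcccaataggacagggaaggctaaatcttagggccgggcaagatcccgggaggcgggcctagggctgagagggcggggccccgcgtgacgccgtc
Utp18, chr11:93885767-93886016, minus strand: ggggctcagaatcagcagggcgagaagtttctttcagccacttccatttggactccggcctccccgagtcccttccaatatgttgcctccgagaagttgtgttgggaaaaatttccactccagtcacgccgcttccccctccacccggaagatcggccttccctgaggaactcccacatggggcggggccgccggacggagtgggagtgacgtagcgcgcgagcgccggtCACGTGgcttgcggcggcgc
Nop58, chr1:59684756-59684960, plus strand: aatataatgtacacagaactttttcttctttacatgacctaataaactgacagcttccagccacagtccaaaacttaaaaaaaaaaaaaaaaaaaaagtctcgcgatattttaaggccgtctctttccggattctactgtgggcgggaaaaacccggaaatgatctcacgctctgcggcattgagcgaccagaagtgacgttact
Nop56, chr2:130274162-130274366, plus strand: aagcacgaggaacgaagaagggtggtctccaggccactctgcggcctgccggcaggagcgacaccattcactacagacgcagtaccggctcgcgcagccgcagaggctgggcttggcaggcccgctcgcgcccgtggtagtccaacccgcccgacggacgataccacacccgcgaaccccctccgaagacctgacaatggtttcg
In Nop2 the first base of the match lay 60 bases before the start site, in Utp18 it lay 20 bases before and in Rrp7a 208 bases before. A match is a run of letters and not a measured binding site, and the lack of one in these windows says nothing of the factor elsewhere.

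The levels themselves spread widely among the members. Averaged over all 27 kidneys, Nop10 (138.7 FPKM), Polr1d (113.2) and Rrp1 (77.0) were highest. The Pol I subunits ranged from 4.69 FPKM for Polr1e to 113.2 for Polr1d, and the subunits of the processome from 0.676 for Utp14b to 43.5 for Rrp7a. The size of the change did not follow the level in order. Nop10, first by level, had a log2 fold change of 0.29 from 26 to 28 min, Nop58, the tenth, 0.93, and Rrp12, at 4.85 FPKM, 0.60. Since a pseudocount of 1 FPKM was added, the fold changes of the members at a few FPKM are understated.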

How the data were processed

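Values of 27 left kidneys were analysed, grouped by the ischemia time in the labels. The authors deposited FPKM by gene symbol, with 2 decimals, under the name RPKM in the paper. The submitters' processing notes name Bowtie2, RSEM, DESeq2 and GRCm38.p6. Their versions and the annotation are not given in the sources used here. The quantile normalization and log2 step of the paper's methods are not in the deposited values. Columns of no sample numbered 0. For 18188 genes with FPKM over 0 in 3 kidneys or more, log2(FPKM + 1) values were quantile normalized and fitted in limma 3.58.1 (R 4.3.3), with 1 mean per ischemia time and all 27 kidneys. p-values were adjusted over all these genes by the method of Benjamini and Hochberg, and the threshold was 0.05. A differentially expressed gene also had an absolute log2 fold change above 1. There were 11 comparisons. Members, roles and gene lists were chosen with earlier results of these data known, and 1 kidney epithelium marker first listed is not reported here or in the sums. Full statistics are given for the Pol I subunits, the snoRNP core, Utp14a and Utp14b, the 6 highest and 4 lowest members at 30 against 0 min, the 4 highest and 4 lowest at 16 against 0 min and at 28 against 26 min, the 3 largest called changes of each pathway list at 30 min, and Myc. Alternatives changed the pseudocount (0.1 FPKM), the scaling (none, or a constant sum of FPKM per kidney), the filter (1 FPKM, or none), the kidneys fitted (only those of the comparison, or all but 1), eBayes (trended) or the block (replicate number). The steps were tested on simulated data. Plots used matplotlib 3.10.9 with Python 3.11.15.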

Additional observations from a re-analysis of the deposited data

How the results depend on the processing

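The counts of members that rose at 28 (30) and 30 min (29) against 0 min and at 28 against 26 min (28) stayed within 1.5 times under every alternative run, and no change of a named gene reversed. The counts at the shorter times did not. Without quantile normalization the members that rose against 0 min were 16, 13, 13, 22, 19 and 22 for 16, 18, 20, 22, 24 and 26 min in order, and with FPKM rescaled to a constant sum 17, 12, 13, 21, 19 and 25. Under these scalings all genes shifted as well. At 16 against 0 min 1715 of all genes were higher and 1748 lower after quantile normalization, 2882 and 1009 without it, and 3108 and 918 with a constant sum. For 18, 20, 22, 24 and 26 min in order, 2289, 1954, 2440, 2465 and 2702 of all genes were higher after quantile normalization. They were 3570, 3078, 3605, 3804 and 4070 without it, and 3278, 3072, 3590, 3870 and 4515 with a constant sum. Both scalings called 0 members lower at 24 min and at 30 min against 0 min, where 1 was called in each, and 5 as differentially expressed at 30 min, where 3 were. Without quantile normalization 4 members fell from 28 to 30 min, where 2 did. With a pseudocount of 0.1 FPKM 3 rose at 16 min, 1 fell from 28 to 30 min and 5 were differentially expressed at 30 min. A fit of only the groups compared called 0 higher at 16 min, 2 at 20 min and 6 at 22 min, 1 lower at 18, 20 and 22 min each, 0 lower at 30 against 0 min and 0 lower from 28 to 30 min. These fits have fewer samples. In them 6 of all genes were called higher and 10 lower at 16 min, and 0 of all genes from 28 to 30 min. The cause of the other differences was not tested.

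Leaving out each kidney in turn gave, against 0 min, 1 to 11 members higher for 16 min, 0 to 6 for 18 min, 1 to 4 for 20 min, 4 to 10 for 22 min, 5 to 8 for 24 min, 6 to 11 for 26 min, 30 to 30 for 28 min and 27 to 29 for 30 min. For 28 against 26 min it gave 20 to 28 higher. It gave 0 to 1 lower at 22 min, 0 to 1 at 24 min, 0 to 2 at 30 min against 0 min and 1 to 7 from 28 to 30 min. The differentially expressed members were 4 to 5 at 28 min, 1 to 4 at 30 min and 0 to 1 for 28 against 26 min. Kidneys that moved a count by over 1.5 times were all 6 for 16 min. For 18 min they were sham replicates 1, 2 and 3 (4, 1 and 3 members higher) and 18 min replicates 1 and 3 (0 and 2). For 20 min they were sham replicate 2 and 20 min replicate 2 (1 each), and for 22 min sham replicates 1, 2 and 3 (6, 5 and 6) and 22 min replicates 1 and 3 (4 each). For 24 min they were sham replicate 2 and 24 min replicate 1 (5 each), and for 26 min sham replicate 1 (8) and 26 min replicate 3 (6). The number of all genes called higher moved as well, for 16 min to between 818 and 2474, where 1715 were called with every kidney.

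The labels give the groups the same replicate numbers, but nothing ties equal numbers to a shared animal, litter or day. Deviations of same-numbered kidneys from their group means correlated between -0.30 and 0.27, and in no comparison was every pair over 0.1. With so few pairs these values cannot exclude a shared day or litter, and the main fit did not pair the kidneys. A fit with the replicate block gave, against 0 min, 5 members higher for 16 min, 12 for 26 min, 30 for 28 min and 28 for 30 min, and 26 at 28 against 26 min. It moved no count by over 1.5 times. Without read counts the depth, and so the counting error of low members such as Utp14b and Nol4, is unknown.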

Other observations

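A few genes of the pathway were lower after ischemia while most were higher, and these genes were picked after their values were seen. At 16 against 0 min the 3 listed genes that fell were Mdn1, Mtrex and Aatf, with log2 fold changes of -0.40 (SE 0.09, adjusted p = 0.00532), -0.27 (SE 0.09, adjusted p = 0.033) and -0.32 (SE 0.10, adjusted p = 0.0321) in limma. Mdn1, the gene of a very large ATPase that remodels the large-subunit precursor, was at 1.56, 1.95 and 1.7 FPKM in the sham kidneys, 1.28, 1.13 and 1.44 after 16 min and 1.36, 1.18 and 0.94 after 30 min. Mtrex, the helicase that unwinds RNA for the nuclear exosome, was at 23.41, 22.51 and 20.45 FPKM in the sham kidneys, 17.29, 18.04 and 18.28 after 28 min and 16.71, 14.29 and 16.72 after 30 min. Mdn1 and Mtrex were also lower at 28 min against 0 min, by -0.29 and -0.42, and none of the 118 pathway genes fell from 26 to 28 min. In the MYC network Max, the partner of MYC, rose by 0.25 (SE 0.08, adjusted p = 0.0445) from 26 to 28 min.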
